A study of Mus musculus with 35 samples.

Results

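The mitochondrial genome of the mouse supplied 13 of the 24480 genes in the count table. They were taken as every gene placed on chromosome M, without regard to its counts. All 13 encode proteins of oxidative phosphorylation: 7 are subunits of complex I (ND1, ND2, ND3, ND4, ND4L, ND5 and ND6), 1 is the cytochrome b of complex III (CYTB), 3 belong to complex IV (COX1, COX2 and COX3) and 2 to the ATP synthase (ATP6 and ATP8). The table holds no row for a mitochondrial ribosomal or transfer RNA. On GRCm38, 12 of the genes lie on the plus strand and 1, ND6, on the minus strand, and none has an intron. The complex I genes ND1 and ND2 come first, at bases 2751 to 3707 and 3914 to 4951 of chrM, followed by COX1 at 5328 to 6872 and COX2 at 7013 to 7696. ATP8 (7766 to 7969) overlaps ATP6 (7927 to 8607), which touches COX3 (8607 to 9390). The remaining complex I genes are ND3 (9459 to 9806), ND4L (9877 to 10173), ND4 (10167 to 11544), ND5 (11742 to 13565) and ND6 (13552 to 14070), and CYTB stands last at 14145 to 15288.

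Mitochondrial DNA is a small circle that a dedicated RNA polymerase, POLRMT, transcribes from both strands with the help of TFAM and TFB2M. The long primary transcripts are cut at the tRNAs that stand between the genes and the pieces are polyadenylated, so that the level of each mRNA depends on its processing and stability as well as on transcription. The egg passes on a large store of mitochondria, and mitochondrial DNA is thought not to be replicated in bulk during the first cleavages.

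Total RNA was sequenced from 35 samples of wild-type C57BL/6NRj mouse embryos. The Kdm5b zygotes (n = 10) and Kdm5b 2C embryos (n = 6) had been injected with Kdm5b-yfp mRNA at 1150 ng/µl, which encodes a histone H3 lysine 4 demethylase with a fluorescent tag, and the Ctrl zygotes (n = 10) and Ctrl 2C embryos (n = 9) with water. Zygotes were collected at 17 h after ovulation and 2-cell (2C) embryos at 5.5 to 8 h after division. Each zygote sample was 1 embryo. In Ctrl 2C, 6 samples were single intact embryos, 1 pooled 2 blastomeres from 2 embryos and 2 pooled 3, and in Kdm5b 2C 5 were single and 1 pooled 3; the pools came from embryos in which 1 cell had survived the handling. No control mRNA was injected, and Kdm5b-injected embryos with weak or no fluorescence were discarded. Unlike the zygote samples, the 2C samples derive from cryopreserved zygotes that were thawed, and zygote and 2C libraries were prepared on separate days; differences of stage, freezing and library day therefore cannot be told apart. The samples were stored in strips of 8 tubes. From the index numbers in the library names, strip 11 (indexes 81 to 88) held 3 Ctrl and 5 Kdm5b 2C samples and strip 12 (89 to 95) held 6 Ctrl and 1 Kdm5b; this assignment of tubes to strips was inferred. All 3 Ctrl 2C pools were in strip 12 and the Kdm5b 2C pool in strip 11.

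The Kdm5b row took 2.30 to 10.4% of the counts in Kdm5b zygotes and 8.27 to 15.8% in Kdm5b 2C, against at most 0.0189% in any Ctrl sample, so it was removed before every total. The remaining gene counts came to 12597159 to 17797439 per sample in Ctrl zygotes, 10966013 to 16004780 in Kdm5b zygotes, 8705137 to 12877051 in Ctrl 2C and 9611553 to 11047189 in Kdm5b 2C. Ctrl 2C replicates 2 and 3, both single embryos of strip 11, stood apart, with 11840 and 12154 genes having at least 1 count, while the other 2C samples had 13854 to 15300 and the zygotes 13869 to 16173. The summed share, the calls between the Ctrl stages and the spread in Ctrl 2C are given with and without these 2 libraries. All 10 oocyte and early embryo markers were present, led by Oosp1, an oocyte-secreted protein, at a mean of 1709 TPM in Ctrl zygotes (TPM is the count per length of the gene, scaled to the same sum in every sample). The summed level of 8 genes activated at the 2-cell stage ran from 26.3 to 78.5 TPM in Ctrl zygotes and from 167 to 777 TPM in Ctrl 2C. Of 14 markers of the cumulus cells that surround the egg, 12 were under 1 TPM in Ctrl zygotes and 10 in Kdm5b zygotes. In Ctrl 2C 8 were under 1 TPM, and in Kdm5b 2C 13. Col1a2 was at 0 in all groups, and in Ctrl zygotes most of the summed 30.6 TPM was Cyp19a1 at 27.2 TPM.

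The 13 genes fell into 2 classes of abundance that did not overlap. ND1, ND2, COX1, ND4, ND5, ND6 and CYTB had 2427 to 132969 counts in each of the 35 samples. The other 6, COX2, ATP8, ATP6, COX3, ND3 and ND4L, had 0 to 187 counts and together made up 0.0494 to 0.103% of the mitochondrial counts. The single 0 was ND3 in 1 Ctrl 2C sample. Genes of one complex were divided between the classes: in Ctrl zygotes, COX1 had a mean of 1609 ± 314 CPM (gene counts scaled to a common total; SD, n = 10), while COX2 had 1.41 ± 0.513 and COX3 0.569 ± 0.239.

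Apart from ATP8, the scarce genes were those with identical sequence in the nuclear genome over nearly their whole length. Each gene was cut into every window of 100 bases and each window was searched for in all other annotated transcripts (GENCODE M21). For COX2, ATP6, COX3, ND3 and ND4L, 97.6 to 99.9% of the windows had an identical copy in another transcript. The share was 60.8% for ND4, 30.8% for COX1 and 3.19% for ND2, and no window of ND1, ND5, ND6, CYTB or ATP8 had one. The copies belong to 10 unprocessed pseudogenes, none of which has a row in the count table. Of these, 7 lie side by side on the minus strand of chromosome 1 at 24611535 to 24616197 and 3 on chromosome 2, of which Gm13340 (22588103 to 22589647) matches COX1.

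The boundaries of the shared stretches are shown in 3 windows of 60 bases, written 5′ to 3′ as DNA on the plus strand of chrM (GRCm38), with bases inside a shared stretch in capitals. In COX2 the whole gene apart from its last 3 bases is shared with Gm28661 or Gm13341, so every base of the window is a capital. All 60 bases of the window were found in Gm28661. In ND4 the shared stretch covers bases 1 to 876 of the gene and ends within the window. COX1 has 3 shared stretches, at bases 314 to 461, 721 to 836 and 1067 to 1545, and the last and longest of them begins within the window.
COX2 (chrM:7313-7372): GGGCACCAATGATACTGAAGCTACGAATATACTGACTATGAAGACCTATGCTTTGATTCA
ND4 (chrM:11013-11072): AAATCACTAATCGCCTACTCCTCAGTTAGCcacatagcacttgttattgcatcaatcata
COX1 (chrM:6364-6423): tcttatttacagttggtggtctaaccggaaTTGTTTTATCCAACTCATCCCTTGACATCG

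A fragment that maps equally well to several places is not counted by the counting program unless told otherwise, so fragments that lie wholly inside a shared stretch add nothing to these values, and the levels of COX2, ATP6, COX3, ND3 and ND4L are uncertain. The partly shared genes COX1, ND4 and, over 129 bases, ND2 are counted from part of their length. ATP8 was scarce too, with a mean of 0.517 ± 0.223 CPM in Ctrl zygotes, but no copy of it was found; the nuclear bases between its neighbours' copies were not in the transcript sequences and were not searched. ATP8 and ATP6 also share 43 bases of mitochondrial sequence, given in capitals in the last 60 bases of ATP8, and a fragment that touches both genes is assigned to neither.
ATP8 (chrM:7910-7969, plus strand): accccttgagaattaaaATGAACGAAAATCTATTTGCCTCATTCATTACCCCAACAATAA

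**Figure D1:**
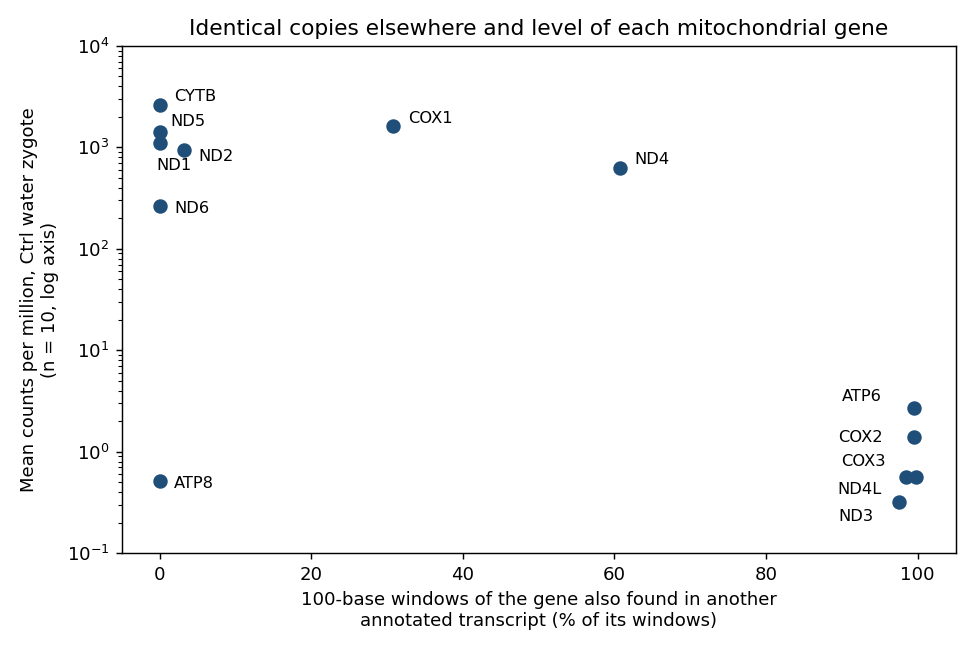
Each point is 1 of the 13 mitochondrial genes, with the percentage of its 100-base windows found in another annotated transcript on the x axis and its mean CPM in Ctrl zygotes (n = 10, log axis) on the y axis. The 5 genes with copies of at least 97.6% of their windows have under 3 CPM, as does ATP8, for which no copy was found.

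CYTB had the highest level per length of the 7 abundant genes in every group. In Ctrl zygotes its level was 4448 TPM in the lowest sample, 7048 in the median and 8546 in the highest, above ND1 in 10 of 10 samples with ranges that did not overlap. CYTB ranked 10th by counts and 3rd per length among 24479 genes in Ctrl zygotes, and 2nd and 3rd in Ctrl 2C. Below CYTB, the mean levels in Ctrl zygotes ran from ND1 (3431 ± 905 TPM) through COX1 (3125 ± 604), ND2 (2742 ± 614), ND5 (2337 ± 612) and ND6 (1521 ± 318) to ND4 (1372 ± 291). Neighbours in this order overlapped in range. This order changes when the counts are divided by the number of windows that have no copy in place of the length. CYTB then stayed first at 2530 CPM per 1000 windows, and COX1 (1609), ND1 (1276), ND4 (1256), ND2 (1044), ND5 (824) and ND6 (626) followed, so that ND4 moved from last place to above ND2 and COX1 to above ND1.

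In Ctrl 2C the order of the means was CYTB (20974 ± 7831 TPM, SD, n = 9), ND1 (11914 ± 5450), ND2 (9942 ± 4129), COX1 (8926 ± 3831), ND5 (6323 ± 2839), ND4 (5096 ± 2137) and ND6 (2596 ± 977), and all neighbours overlapped in range. Per 1000 windows without a copy, the Ctrl 2C order was CYTB (7691 CPM), ND4 (4691), COX1 (4621), ND1 (4458), ND2 (3803), ND5 (2242) and ND6 (1065).

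**Figure D2:**
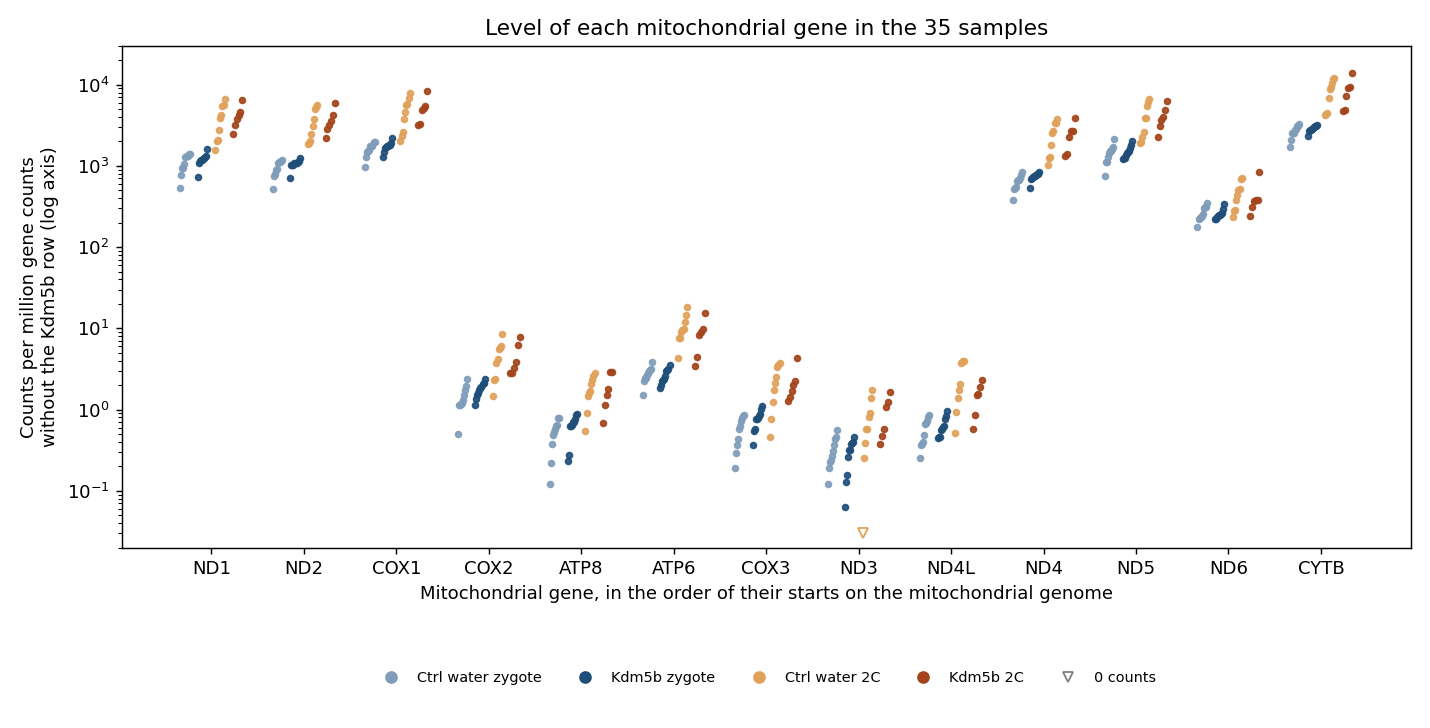
CPM (log axis) of each of the 13 genes in all 35 samples, with 1 point per sample, groups by colour and points sorted by value within a group; an open triangle is a count of 0. The 7 abundant genes have 177 to 13834 CPM and the 6 scarce genes under 20 CPM, and the 2C medians of the abundant genes lie above the zygote medians, with ranges that overlap in some genes such as ND5 and ND6.

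The 13 genes together took a larger share of the counts in 2C embryos than in zygotes. Their summed share was 0.516% in the lowest Ctrl zygote, 0.903% in the median and 1.01% in the highest. In Ctrl 2C it was 1.40%, 2.73% and 4.24%, and all 9 samples lay above the highest Ctrl zygote. The mean was 0.862 ± 0.159% (n = 10) in Ctrl zygotes and 2.66 ± 1.14% (n = 9) in Ctrl 2C, a ratio of 3.09, or 3.50 without the 2 libraries of few detected genes. The Kdm5b groups had the same separation, with 0.714%, 0.957% and 1.10% in Kdm5b zygotes (mean 0.939 ± 0.0990%, n = 10) and 1.67%, 2.73% and 4.57% in Kdm5b 2C (mean 2.79 ± 1.04%, n = 6), a ratio of 2.97 with 6 of 6 samples above the highest zygote. With single intact 2C embryos only, the ratio was 2.45 in Ctrl and 2.59 in Kdm5b. The summed share is given as a description with no test. In these libraries of single embryos or pooled blastomeres, more mitochondrial RNA and less RNA from all other genes cannot be told apart. The number of cells is known from the labels, 1 in each zygote sample and 2 or 3 in each 2C sample.

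**Figure D3:**
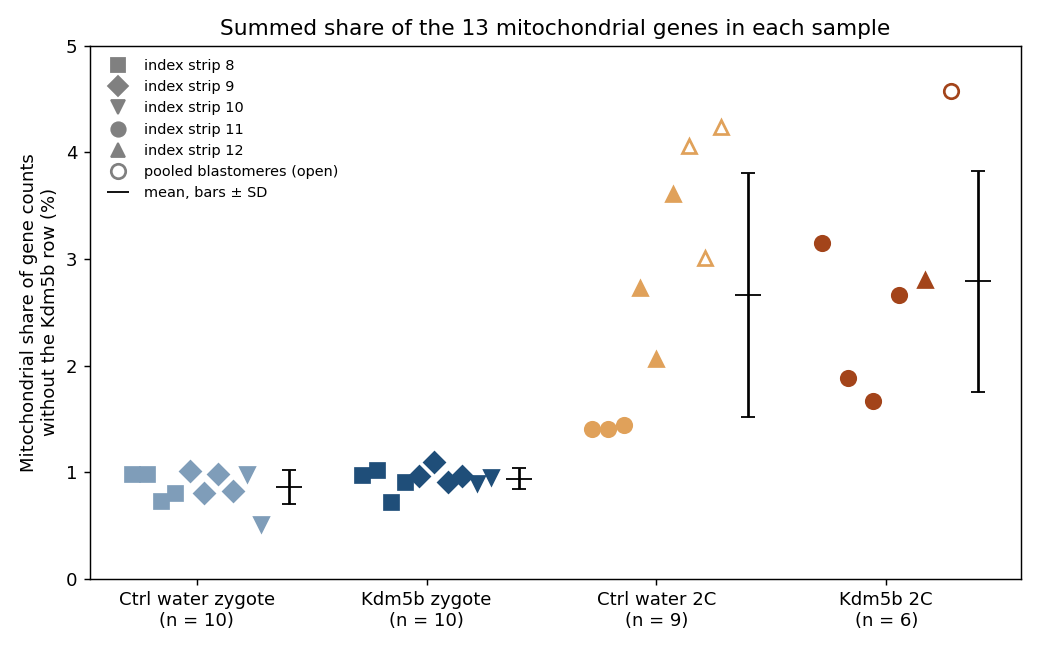
Summed share of the 13 mitochondrial genes in all gene counts without Kdm5b (percent, y axis) for each of the 35 samples by group, with strips by marker, pools open and bars for the mean ± SD. Zygotes lie between 0.516 and 1.10% and 2C samples between 1.40 and 4.57%, and the 3 Ctrl 2C samples of strip 11 lie at 1.40 to 1.44%.

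The comparison of Ctrl 2C with Ctrl zygotes asks how the transcripts differ between the stages without Kdm5b. With edgeR's quasi-likelihood test, all 12 of the members with enough counts to be tested were higher in Ctrl 2C at an adjusted p under 0.05, while 26.8% of the 11968 genes tested were higher. ND3 was not tested. Their median log2 fold change was 1.88, against 0.02 over all genes tested, and 11 of them had a log2 fold change over 1, against 9.2% of all genes. ND2, a core subunit of the membrane arm of complex I, had 518, 1005 and 1175 CPM in the lowest, median and highest Ctrl zygote and 1857, 3136 and 5569 CPM in Ctrl 2C, without overlap (log2 fold change 1.96, SE 0.20, edgeR adjusted p = 9.32e-09). ND4, its neighbour in that arm, had 378, 657 and 847 CPM against 1036, 2553 and 3746 CPM, also without overlap (log2 fold change 1.99, SE 0.20, edgeR adjusted p = 1.14e-08). CYTB, which carries the b-type haems of complex III, had 1692, 2666 and 3254 CPM against 4248, 8809 and 12067 CPM (log2 fold change 1.70, SE 0.18, edgeR adjusted p = 2.10e-08). The lowest Ctrl 2C sample lay above the highest Ctrl zygote in each of these 3 genes, which were picked for their small p. The share of all tested genes without overlap was not worked out, so this separation cannot be set against the background. ND5 did overlap, with 762 to 2125 CPM in Ctrl zygotes and 1911 to 6674 CPM in Ctrl 2C.

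Among the remaining genes the log2 fold change was 1.90 for ND1, 1.62 for COX1 and 1.54 for ND5, and 1.74 to 2.19 for the scarce COX2, ATP8, ATP6, COX3 and ND4L, which rest on few counts. Without the 2 libraries of few detected genes, 12 of 12 members were again called, where 28.9% of all genes were higher, with log2 fold changes of 2.11 for ND2, 2.17 for ND4 and 1.85 for CYTB. Against the 3 Ctrl 2C samples of strip 11 alone, 8 were called (17.1% of all genes were higher), and 3 of them had a log2 fold change over 1, against 5.83% of all genes; ND2 then had 1.13, ND4 1.01 and CYTB 0.82. The summed share of those 3 samples exceeded the Ctrl zygote mean by 0.556 percentage points, against 1.80 for all 9. The summed cumulus marker level was 30.6 ± 4.22 TPM in Ctrl zygotes and 30.9 ± 11.8 TPM in Ctrl 2C. These like sums hide opposite movements. Cyp19a1 averaged 27.2 TPM in Ctrl zygotes and 21.2 TPM in Ctrl 2C, so the rest of the sum was larger in 2C. Of the 14 markers, 12 were under 1 TPM in Ctrl zygotes and 8 in Ctrl 2C. The part of these markers in the stage difference was not tested.

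ND6, the only member read from the other strand, had the smallest stage difference of the members tested over all samples. Against strip 11 alone this order did not hold: the log2 fold change was 0.70 for ND6, 0.64 for COX1 and 0.63 for ND5. It had 177, 248 and 354 CPM in the lowest, median and highest Ctrl zygote and 236, 434 and 711 CPM in Ctrl 2C, and the 2 ranges overlapped. Its log2 fold change was 0.87 (SE 0.18, edgeR adjusted p = 0.000262) in Ctrl embryos. In Kdm5b embryos it had 221, 248 and 343 CPM in zygotes and 242, 375 and 835 CPM in 2C, with a log2 fold change of 0.85 (SE 0.18, edgeR adjusted p = 0.000237). Both ND6 and the plus-strand genes had higher means in the pools, but not to a like degree. In Ctrl 2C the mean summed plus-strand share was 3.71% in the pools, all of strip 12, and 2.07% in single intact embryos of both strips. The single embryos had 2.77% in strip 12 and 1.38% in strip 11. The mean ND6 share was 0.0632% in the pools, and in single embryos 0.0316% in strip 12 and 0.0395% in strip 11. For ND6, the 3 Ctrl 2C pools had 684, 711 and 501 CPM and the 2 libraries of few detected genes 434 and 514. The other 4 single embryos had 236, 280, 282 and 384 CPM, of which 3 lay within the range of the Ctrl zygotes. Without the 2 libraries of few detected genes the ND6 log2 fold change was 0.82 in Ctrl. With single intact embryos only, the ND6 log2 fold change was 0.53 in Ctrl (SE 0.17, edgeR adjusted p = 0.0123) and, without the pool that is replicate 6 of Kdm5b 2C, 0.49 in Kdm5b embryos (SE 0.11, edgeR adjusted p = 0.000407). The base content of the transcripts also sets it apart: ND6 is 28.1% guanine, and the other members are 5.88 to 16.1%. The first 60 bases of the ND6 and CYTB transcripts are shown with guanines in capitals, 12 in ND6 and 3 in CYTB; ND6 is read on the minus strand. ND6 overlaps ND5 by 14 bases at its 3′ end, and the counting used the strand.
ND6 (chrM:14011-14070, minus strand): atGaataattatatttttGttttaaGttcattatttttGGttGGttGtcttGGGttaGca
CYTB (chrM:14145-14204, plus strand): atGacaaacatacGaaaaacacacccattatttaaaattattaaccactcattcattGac

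The ratio of the summed plus-strand counts to those of ND6 was higher in 2C on average and varied widely between samples. It ran from 16.1 to 54.3 in Ctrl zygotes (mean 33.6 ± 11.3, n = 10) and from 27.0 to 96.4 in Ctrl 2C (mean 62.4 ± 25.8, n = 9). The 2 Ctrl 2C libraries with few detected genes gave the 2 lowest values of that group, 31.4 and 27.0, and the third sample of strip 11 gave 58.5. In the Kdm5b groups the ratio ran from 19.8 to 42.9 in zygotes (mean 36.3 ± 7.07, n = 10) and from 52.4 to 81.8 in 2C (mean 68.1 ± 12.2, n = 6), without overlap. ND6 made up 3.22 ± 1.20% of the mitochondrial counts in Ctrl zygotes and 1.89 ± 0.918% in Ctrl 2C. These ratios were not tested.

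**Figure D4:**
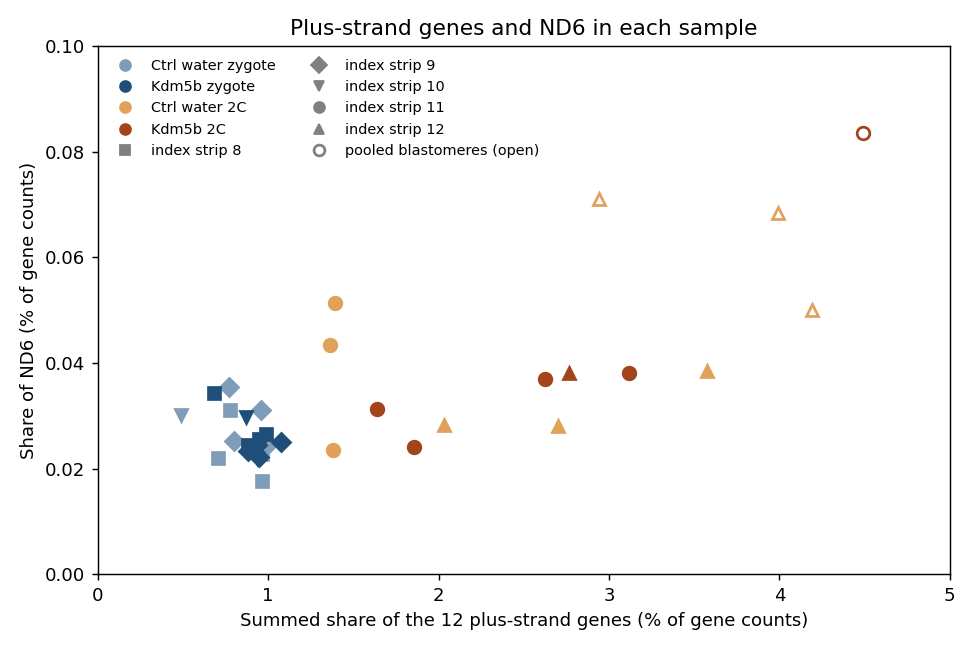
Summed share of the 12 plus-strand genes (percent of gene counts without Kdm5b, x axis) against the share of ND6 (percent, y axis), with 1 point per sample, groups by colour, strips by marker and pools open. The 2C samples lie to the right of all zygotes, while their ND6 shares, 0.0236 to 0.0835%, overlap those of the zygotes, 0.0177 to 0.0354%.

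Kdm5b 2C was compared with Kdm5b zygotes, which are other samples than the Ctrl stages. All 12 members tested were higher at an adjusted p under 0.05, where 29.3% of the 12390 genes tested were higher, and 11 had a log2 fold change over 1, against 10.5% of all genes. Their median log2 fold change was 1.65, against 0.01 over all genes tested. ND2 had 708, 1086 and 1264 CPM in the lowest, median and highest Kdm5b zygote and 2216, 3390 and 6009 CPM in Kdm5b 2C (log2 fold change 1.94, SE 0.15, edgeR adjusted p = 1.05e-10). ND1, the subunit at the base of the membrane arm of complex I, had 728, 1209 and 1611 CPM against 2491, 3983 and 6552 CPM (log2 fold change 1.91, SE 0.16, edgeR adjusted p = 2.78e-10). ND4 had 542, 755 and 851 CPM against 1336, 2463 and 3918 CPM (log2 fold change 1.82, SE 0.16, edgeR adjusted p = 7.94e-10). None of these 3 ranges overlapped between the stages. The 3 genes were picked for their small p, and the share of all tested genes without overlap was not worked out. The cumulus marker sum was 35.8 ± 6.90 TPM in Kdm5b zygotes and 20.5 ± 7.72 TPM in Kdm5b 2C, of which Cyp19a1 alone made up 30.6 and 15.6 TPM. The part of this sum in the stage difference was not tested.

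**Figure D5:**
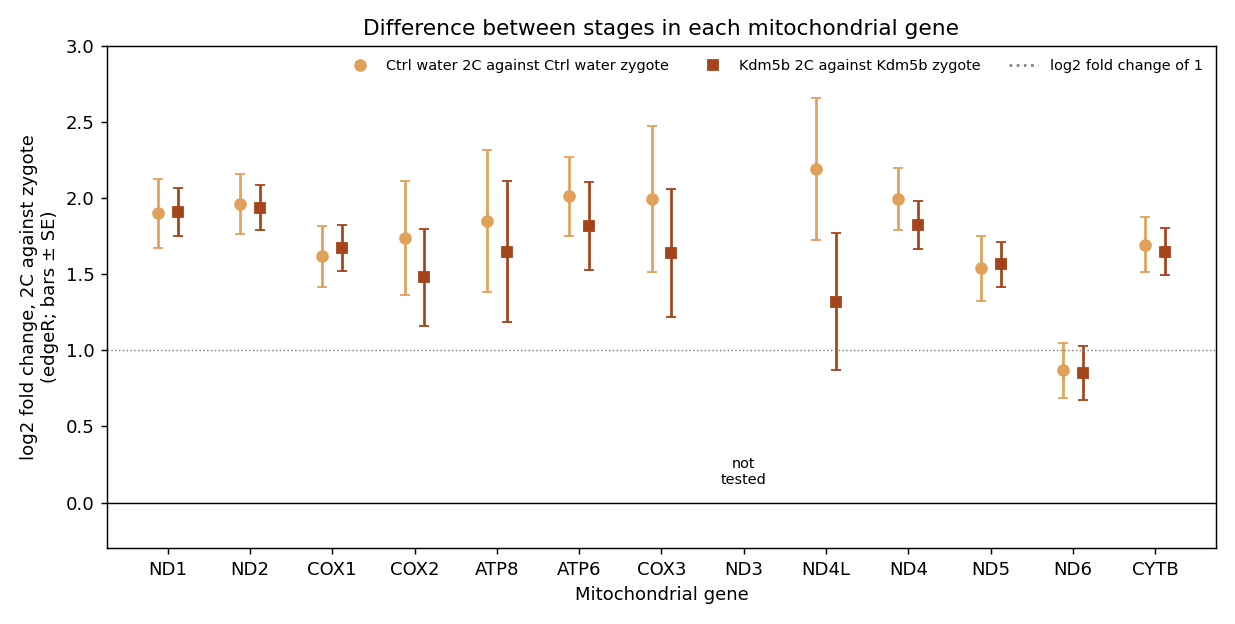
Log2 fold change of 2C against zygotes from edgeR (y axis) for each member in genome order (x axis), with circles for Ctrl, squares for Kdm5b, bars of ± SE and a dotted line at a log2 fold change of 1. All 12 tested members lie above 0, and ND6 alone lies under the dotted line, at 0.87 in Ctrl and 0.85 in Kdm5b.

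The nuclear genes that serve the mitochondrial genome were compared between the stages as 4 lists. Of 10 transcription factors and terminators of mitochondrial DNA, 9 were tested in Ctrl embryos; 6 were lower in 2C, 1 was higher and 2 did not pass, where 25.4% of all genes were lower. Polrmt, the polymerase itself, fell by 1.39 on the log2 scale and Tfam, which packages and activates mitochondrial DNA, by 1.42. Mterf4, which guides a ribosomal RNA methylase, fell by 2.04 and Mterf1b, a termination factor, by 3.70. Tfb2m, which opens the promoter, rose by 0.91. The list had a median log2 fold change of -1.39 in Ctrl and -1.61 in Kdm5b embryos, where 6 of 9 were lower (against 29.5% of all genes) and Tfb2m was higher by 0.74. Its summed level was 395 ± 37.9 TPM in Ctrl zygotes and 149 ± 41.2 TPM in Ctrl 2C.

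Factors that process or stabilise mitochondrial RNA showed no common direction. Of 20 tested in Ctrl embryos, 6 were higher, 5 lower and 9 did not pass, with a median log2 fold change of -0.06; 26.8% of all genes were higher and 25.4% lower, so these shares lie near the background. Lrpprc, which stabilises the plus-strand mRNAs, fell by 1.51 and Mtpap, the mitochondrial poly(A) polymerase, by 0.65, while Grsf1, a protein of the mitochondrial RNA granules that binds guanine-rich RNA such as that of ND6, rose by 0.39 and Fastkd1 by 1.08. In Kdm5b embryos 5 were higher and 9 lower, where 29.3% and 29.5% of all genes were, with Lrpprc falling by 1.57 and Grsf1 rising by 0.31. The summed level was 1211 ± 27.9 TPM in Ctrl zygotes and 1152 ± 85.8 TPM in Ctrl 2C.

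Of 11 tested genes for the replication of mitochondrial DNA, 3 were higher and 5 lower in Ctrl 2C (median log2 fold change -0.48), where 26.8% and 25.4% of all genes were. Polg, the catalytic subunit of the polymerase, rose by 0.68, whereas the helicase Twnk (Peo1 in the table) fell by 1.59, the single-strand binding protein Ssbp1 by 0.97 and the exonuclease Mgme1 by 1.48. In Kdm5b embryos 4 were higher and 5 lower, where 29.3% and 29.5% of all genes were, with Polg rising by 1.52.

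Nuclear-encoded subunits of oxidative phosphorylation, among them complex II, to which no mitochondrial gene contributes, were more often lower than higher in 2C. Of 74 nuclear-encoded subunits of the respiratory chain and ATP synthase tested in Ctrl embryos, 36 were lower, 3 higher and 35 did not pass, where 25.4% of all genes were lower, with a median log2 fold change of -0.92. Sdhd, a membrane anchor of complex II, fell by 2.43. Uqcrc2 of complex III fell by 1.58 and Atp5a1, the alpha subunit of the ATP synthase, fell by 1.20. Without the 2 libraries of few detected genes, the lists had 1 higher and 6 lower of 9 transcription factors, 7 and 6 of 21 processing factors (median 0.00 on the log2 scale), 3 and 6 of 11 replication genes and 7 and 37 of 75 subunits (median -0.73), where 28.9% of all genes were higher and 27.3% lower. The summed level of the 77 listed genes was 5074 ± 606 TPM in Ctrl zygotes and 2952 ± 478 TPM in Ctrl 2C. In Kdm5b embryos 45 of 75 tested were lower and 4 higher (median log2 fold change -0.89), where 29.5% and 29.3% of all genes were. Cox8a, a small subunit of complex IV, was one of the 4 and rose by 1.55, while Uqcrc2 fell by 2.05 and Ndufa5 of complex I by 2.62.

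No mitochondrial gene passed the test between Kdm5b and Ctrl zygotes, the comparison that asks what Kdm5b mRNA changes before the first division; it uses the same zygote samples as the stage comparisons. Of 10 members tested, 0 had an adjusted p under 0.05 with edgeR, where 0.134% of the 11933 genes tested did. DESeq2 called 0 members as well, but its share over all genes is not given. At an unadjusted edgeR p under 0.05 there was 1 member, against 10.3% of all genes. That gene was ND4, with 378, 657 and 847 CPM in Ctrl zygotes and 542, 755 and 851 CPM in Kdm5b zygotes, ranges that overlapped (log2 fold change 0.24, SE 0.10, edgeR adjusted p = 0.377). The mean summed share was 1.09 times as high in Kdm5b zygotes, within the spread of the samples. In the zygote strips it was 0.873, 0.907 and 0.748% for Ctrl and 0.901, 0.983 and 0.926% for Kdm5b. ATP8, ND3 and ND4L had too few counts to be tested.

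In 2C embryos, 0 of 12 members tested passed with edgeR, where 0.0245% of the 12244 genes tested did. DESeq2 called 0 members, and its share over all genes is not given. None of the 12 had an unadjusted edgeR p under 0.05, against 9.41% of all genes. The median log2 fold change was 0.08, against 0.00. The smallest p belonged to ND4L, a scarce complex I subunit with 6 to 43 counts in Ctrl 2C and 6 to 22 in Kdm5b 2C (log2 fold change -0.69, SE 0.61, edgeR adjusted p = 0.799), and its value turned to 0.20 with strip in the fit. The mean summed share was 1.05 times as high in Kdm5b 2C. With the 2 Ctrl libraries of few detected genes left out, the difference in mean share turned from 0.127 to -0.227 percentage points, and with the Kdm5b row kept in the total to -0.226. With single intact embryos only it was 0.324 percentage points. A test of whether the Kdm5b effect differed between the stages called 0 of 13 members, where 0.109% of all genes were called, and 0 at an unadjusted p under 0.05, against 9.1% of all genes. ND4L had the smallest p there too (difference in log2 fold change -0.86, SE 0.64, edgeR adjusted p = 0.745). Over 3 alternatives its difference ran from -0.853 to -0.036.

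The 2C comparison looked different within strips. In strip 11 the summed share was 1.40, 1.41 and 1.44% in the 3 Ctrl samples, and 3.15, 1.88, 1.67, 2.66 and, for the pool, 4.57% in the 5 Kdm5b samples, so that all 5 lay above all 3. The ratio of the means was 1.97. The Kdm5b side includes the pool, while all 3 Ctrl samples are single embryos. Over the 4 single Kdm5b embryos the mean share was 2.34%, against 1.42% in Ctrl. In strip 12 the single Kdm5b sample had 2.80% and the 6 Ctrl samples 2.06 to 4.24% with a mean of 3.29%, so the Kdm5b sample lay within the Ctrl range. With strip 11 alone, 2 of 12 members were higher in Kdm5b 2C, where 0.0805% of 12426 genes were: ND1 (log2 fold change 1.17, SE 0.24, edgeR adjusted p = 0.0348) and COX1 (1.14, SE 0.26, edgeR adjusted p = 0.0471). At an unadjusted p under 0.05 there were 6 of 12, against 13.1% of all genes. With strip as a covariate over all 15 samples, 0 members passed, where 0.555% of all genes were higher; 6 of 12 had an unadjusted p under 0.05, against 16.5% of all genes, with a median log2 fold change of 0.66, against 0.03 over all genes, and ND1 and COX1 had log2 fold changes of 0.78 and 0.79. The summed cumulus marker level in strip 11 was 36.0, 51.0 and 44.2 TPM in the 3 Ctrl samples. In the 5 Kdm5b samples it was 16.9, 35.3, 17.6, 20.7 and, for the pool, 12.8 TPM, all 5 below all 3. Over both strips, Cyp19a1 alone averaged 21.2 TPM in Ctrl 2C and 15.6 TPM in Kdm5b 2C, most of the summed mean. The part of this sum in the strip 11 result was not tested. The strip 11 result rests on 3 Ctrl samples, of which 2 are the libraries with few detected genes; the remaining one, replicate 1, had 15132 detected genes and a share of 1.40%.

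The same 3 samples enter the comparison of strips within Ctrl 2C, with a mean summed share of 1.42% in strip 11 and 3.29% in strip 12, a ratio of 2.32. In a comparison chosen after the data were seen, 6 of 12 members were higher in strip 12, where 0.124% of 12860 genes were. These were the 6 abundant plus-strand genes: CYTB, ND4, COX1, ND1, ND5 and ND2, with log2 fold changes of 1.10 to 1.31 and edgeR adjusted p-values of 0.00909 to 0.0299. CYTB had 4248 to 4458 CPM in the 3 samples of strip 11 and 6763 to 12067 CPM in the 6 of strip 12, without overlap (log2 fold change 1.16, SE 0.17). ND6 had 236 to 514 CPM against 280 to 711 CPM, with overlap (log2 fold change 0.23, edgeR adjusted p = 0.808). No member was called with only the single intact embryos, 3 against 3, where 0.0167% of all genes were higher (CYTB 0.95, edgeR adjusted p = 0.0501). In that fit the ND6 value turned to -0.38 (edgeR adjusted p = 0.771). Without the 2 libraries of few detected genes, 1 sample of strip 11 stands against 6 of strip 12 and is assumed to vary as they do, so a missed call says nothing on stability; CYTB then had a log2 difference of 1.21. All 3 pools are in strip 12 and had a mean share of 3.77%, against 2.80% for its 3 single embryos. The summed cumulus marker level was 17.0 to 32.7 TPM in the Ctrl samples of strip 12, below all 3 of strip 11. Over all Ctrl 2C samples, Cyp19a1 alone made up 21.2 of the mean 30.9 TPM, and the markers were not compared singly between strips. The part of this sum in the strip difference was not tested.

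Within the Kdm5b groups, each member was also fitted against the log2 share of the Kdm5b row, a measure of how much injected mRNA a sample held. Among Kdm5b zygotes 0 of 12 members passed with edgeR, and 0% of all genes did; ND4 had the smallest p, with a slope of 0.10. Among Kdm5b 2C 0 of 13 passed, again with 0% of all genes. At an unadjusted p under 0.05 there were 8 of the 13, against 6.27% of all genes, and the median slope was 1.02, against 0.01. COX1 had the smallest p, with a log2 change of 1.04 per doubling of the Kdm5b share (SE 0.24, edgeR adjusted p = 0.625). The points are 6 samples, 5 of them of strip 11, and the pool has both the highest summed share and a Kdm5b share of 15.6%.

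The 7 abundant mitochondrial genes had larger coefficients of variation between samples of a group than the median nuclear gene of a similar level; the scarce genes were not compared, and CYTB had only 1 such gene in Ctrl 2C and 3 in Kdm5b 2C. That of ND1 was 25.6% in Ctrl zygotes, where the median of 171 nuclear genes with a mean within 1.5 times its own was 7.52%. In Ctrl 2C it was 48.2% for ND1, against a median of 15.4% over 14 such genes, and none of the 14 exceeded it. Without the 2 libraries of few detected genes it was 38.3%, against 11.9% over 11 genes. CYTB in Kdm5b zygotes was least apart, at 9.92% against 8.09% over 18 genes. The abundant plus-strand genes moved together from sample to sample: in Ctrl 2C, ND1 made up 14.1 ± 1.31%, ND2 13.0 ± 0.926%, COX1 17.2 ± 1.45% and CYTB 30.5 ± 1.53% of the mitochondrial counts, although the summed share itself ran from 1.40 to 4.24%.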

How the data were processed

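Libraries were made with a stranded total RNA kit and sequenced in pairs. Per the methods of the study and the submitters' processing notes, the authors trimmed reads with fastp 0.21.0, aligned them to GRCm38 with STAR 2.7.3a and counted read pairs per RefSeq gene with featureCounts 1.5.1, by strand and only for pairs with both ends aligned to one chromosome. The deposited table holds these raw counts for 24480 genes and 35 samples, with no unassigned rows. A deposited table of transposon family counts was not used, nor were mitochondrial ribosomal or transfer RNAs analysed here.

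CPM and TPM were computed from the counts after removal of the Kdm5b row, with gene lengths from the table. Groups followed the labels; where nothing says that samples came from separate females, p-values measure the spread between these samples. Genes passing filterByExpr (minimum count 10) were fitted for each pair of groups with edgeR 4.0.16 (TMM, quasi-likelihood test, R 4.3.3), and Benjamini-Hochberg adjustment ran over all genes tested, with a threshold of 0.05. DESeq2 1.42.0, other filters, left-out samples and strips were alternatives. The scripts were tested on simulated data. Same-numbered samples correlated by -0.185 to 0.102 in their deviations from the group means, so numbers were not treated as pairs. Described in full were, per comparison, the 3 members with the smallest p among those called plus ND6, or otherwise the member with the smallest p; all 6 called were given between strips. The members, lists and rules were chosen with earlier results of these data known. From each list, up to 6 called genes with the smallest p were eligible to be named. Sequences and their copies came from GENCODE M21 transcripts (GRCm38). Tables and figures were made with Python 3.11.15, pandas 2.3.3, numpy 2.4.6 and matplotlib 3.10.9. For the nuclear-encoded subunits, 1 gene is not reported here by name.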

Additional observations from a re-analysis of the deposited data

Results flagged for a closer look

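A sample stood far from the rest of its group (a gap over Dixon's 95% limit) in 4 of 32 sets of values checked; chance alone flags about 1 set in 20. Kdm5b zygote replicate 3 had the lowest summed mitochondrial share of its group, 0.714%, where the next sample had 0.898%. The same sample was lowest in ND2, with 708 CPM against 1026 CPM in the next, and in ND4, with 542 CPM against 692 CPM. Kdm5b 2C replicate 6, the pool of 3 blastomeres, had the highest ND6 level of its group, 835 CPM, where the next sample had 381 CPM.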

How the results depend on the processing

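Strips in the stage comparisons, the comparison between strips, and leaving out the 2 libraries with few detected genes were chosen after seeing the data. Of the alternatives for single genes, 297 kept their direction and side of the threshold, 12 lost the call and 2 reversed; of those for counts and shares, 333 stayed within their limits and 12 moved. ND4L between Kdm5b and Ctrl 2C, not called in any fit, reversed from -0.69 to 0.20 with strip as a covariate and to 0.55 with strip 11 only. Strip 11 alone gave 2 called members in that comparison, both with a log2 fold change over 1, and a share difference of 1.37 percentage points; between Ctrl stages it gave 3 members with a log2 fold change over 1 and a share difference of 0.556. A filter on a mean of at least 50 counts, which leaves fewer members tested, gave 7 members with a log2 fold change over 1 in both stage comparisons. The share of all genes that passed under this filter is not given, so the 7 cannot be set against the background. Counting only the members for which no copy was found, the share difference between Kdm5b stages was 1.09 percentage points, a smaller value because fewer genes are summed; the ratio was 2.87, against 2.97, and in Ctrl 2.98, against 3.09. Between the strips of Ctrl 2C, 0 members were called with single intact embryos only (3 against 3) and 0 without the libraries of few detected genes, where 1 sample stands against 6 and the missed calls are uninformative.

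With each sample left out in turn, 0 members were called between Kdm5b and Ctrl at either stage, 12 between Ctrl stages and 11 to 12 between Kdm5b stages. The difference in mean share stayed between 1.60 and 1.96 percentage points for Ctrl and 1.49 and 2.08 for Kdm5b stages, but ran from -0.230 to 0.351 between Kdm5b and Ctrl 2C; it was negative without any one of Ctrl 2C replicates 1, 2 and 3 or the Kdm5b 2C pool. With replicate number as a block, 0, 0, 12 and 9 members were called in the 4 comparisons, the last from 12. The shares of all genes called in the blocked fits and in those with a sample left out are not given. These counts therefore cannot be set against the background. The labels give no reason to pair the numbers, and of all samples, 2 zygotes correlated best with their own number. Leaving out ribosomal RNA genes gave no value, since the table has none. Depth limits the 6 scarce genes, with 0 to 187 counts.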
